A study of Mus musculus with 9 samples.

Results

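Mouse islets kept for 3 days at 20 mM glucose were compared with islets kept at 11.8 mM, the concentration of the ordinary RPMI medium. The comparison uses 6 of the 9 samples of the study, 3 for each concentration, taken by the glucose concentration in their labels. All islets came from mice of the outbred ICR strain, 9 mice in all per the labels, and were cultured with 10% fetal bovine serum, so every sample, control included, was cultured islet tissue at a glucose concentration of at least 11.8 mM. The other 3 samples were kept at 35 mM by their titles, although one protocol text gives the highest concentration as 25 mM; they are named here by the title, share in the fit's estimate of the spread between libraries, and are otherwise given as values beside the 20 mM result. The labels do not say that each sample was 1 animal, so p-values measure the spread between these samples, which may in part be technical.

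Libraries were made from the 3' ends of transcripts with CEL-Seq2, a barcoding method first devised for single cells, here from 3 ng of purified RNA. Each sample was split over 3 barcoded sub-libraries, which were summed. The 6 libraries hold between 3228648 and 4559561 counts on genes, and 9739 genes had enough counts to be tested. The 2 insulin genes, Ins1 and Ins2, took 49.2% to 57.5% of those counts at 11.8 mM and 48.3% to 53.3% at 20 mM, and together with Iapp, Gcg, Sst and Ppy they place the tissue as endocrine islet. Levels are given in CPM, the counts a library would have per 1000000 after edgeR's TMM scaling, changes as log2 fold changes with a standard error (SE), and a gene is called, and said to have risen or fallen, at a Benjamini-Hochberg adjusted p under 0.05 in edgeR's quasi-likelihood test.

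The beta cell senses glucose by metabolising it, and the resulting calcium and cyclic AMP signals act partly through CREB-type factors that bind the cyclic AMP response element (CRE). A sugar-sensing factor, ChREBP, acts through the carbohydrate response element, and its best known target is Txnip, which encodes a thioredoxin-binding protein. Peptide hormones enter the endoplasmic reticulum (ER) through the Sec61 channel, lose their signal peptide to signal peptidase, are folded by chaperones and disulfide isomerases, and are cut by prohormone convertases in the secretory granule. When folding demand rises, factors of the unfolded protein response act on chaperone genes through the ER stress element (ERSE).

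Promoter sequences of 4 called genes are shown, picked because each carries a textbook glucose, cyclic AMP or ER stress element. They come from RefSeq on GRCm38.p6, read 5′ to 3′ on the gene's own strand, and capitals mark the match. The Txnip stretch is chr3:96557812-96557948 (plus strand), the Pcsk1 stretch chr13:75089719-75089846 (plus), the Chgb stretch chr2:132781510-132781637 (plus) and the Pdia6 stretch chr12:17266431-17266569 (plus). All 4 matches lie upstream of the annotated start, between -98 and -65.
Txnip: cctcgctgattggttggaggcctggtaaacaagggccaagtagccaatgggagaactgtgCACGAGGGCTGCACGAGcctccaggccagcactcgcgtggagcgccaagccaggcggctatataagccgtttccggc
Pcsk1: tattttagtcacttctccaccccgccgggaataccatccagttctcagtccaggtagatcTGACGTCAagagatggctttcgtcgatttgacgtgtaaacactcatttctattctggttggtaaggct
Chgb: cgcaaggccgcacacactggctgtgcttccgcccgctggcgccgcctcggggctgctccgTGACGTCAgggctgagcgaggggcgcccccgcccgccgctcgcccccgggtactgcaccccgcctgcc
Pdia6: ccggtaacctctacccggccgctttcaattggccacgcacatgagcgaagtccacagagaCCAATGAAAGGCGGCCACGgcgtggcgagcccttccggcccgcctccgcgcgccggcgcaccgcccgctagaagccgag

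The RefSeq table held a promoter for 15 of the 18 called genes, 12 that rose and 3 that fell, and not for Vgf, Sec11c or Ttr. Promoters run from 250 bases before to 50 after the start, and both strands were searched. The CRE, TGACGTCA, was found in Pcsk1 and Chgb, 2 of the 12 promoters of genes that rose, and in 4.0% of the 7768 tested genes with a promoter. A pair of E-box-like sites spaced as in a carbohydrate response element, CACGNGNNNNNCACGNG, was found in Txnip and in 0.116% of the tested genes with a promoter; this motif was added after the change of Txnip was known. The ERSE, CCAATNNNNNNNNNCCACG, was found in Pdia6 and in 0.154%. The AP-1 site TGANTCA was found in Slco1a5 and in 5.75%, while the E box CACGTG, the ATF4 element TTGCATCA and the unfolded protein response element TGACGTGG were found in none of the 15. The CRE and the unfolded protein response element share their first 6 letters, and a carbohydrate response element can contain an E box. Dapl1, Pdyn and Nucb2, which kept their calls in all 20 alternative analyses given below, held none of these motifs. A match describes the letters of the window and does not show that a factor binds there.

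At 20 mM 15 genes rose and 3 fell. Of the 9739 genes tested 0.185% were called, 0.154% in the upward and 0.0308% in the downward direction. The genes that rose were Dapl1, Pdyn, Nucb2, Vgf, Pcsk1, Slco1a5, Chgb, Tnfrsf23, Txnip, Sec11c, Slc25a40, Serpini1, Pdia6, Tent5a and Ttr, and those that fell were Dapk1, Cib3 and Gstm1. Fitted on the 6 libraries alone, 11 of the 18 were called, without Txnip, Sec11c, Serpini1, Pdia6, Tent5a, Ttr and Gstm1. The smallest called change was 0.60 on the log2 scale and 7 called genes changed by over 2-fold. In all 18 the 3 libraries at 20 mM lay wholly above or wholly below the 3 at 11.8 mM. The 18 were called on these same libraries, so this lack of overlap is no separate support. Libraries failed to overlap in this way for 12.8% of all genes tested, with the 20 mM libraries above in 6.79% and below in 6.04%. The median log2 fold change of all genes was -0.00, with 49.8% positive. Of all genes 62.9% lay within 0.25 of no change, and 776 genes had an unadjusted p under 0.05. The count of called genes rests on single libraries: it was 35 without 11.8 mM replicate 2, 7 without 20 mM replicate 1, when none fell, and 9 without 20 mM replicate 3.

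**Figure D1:**
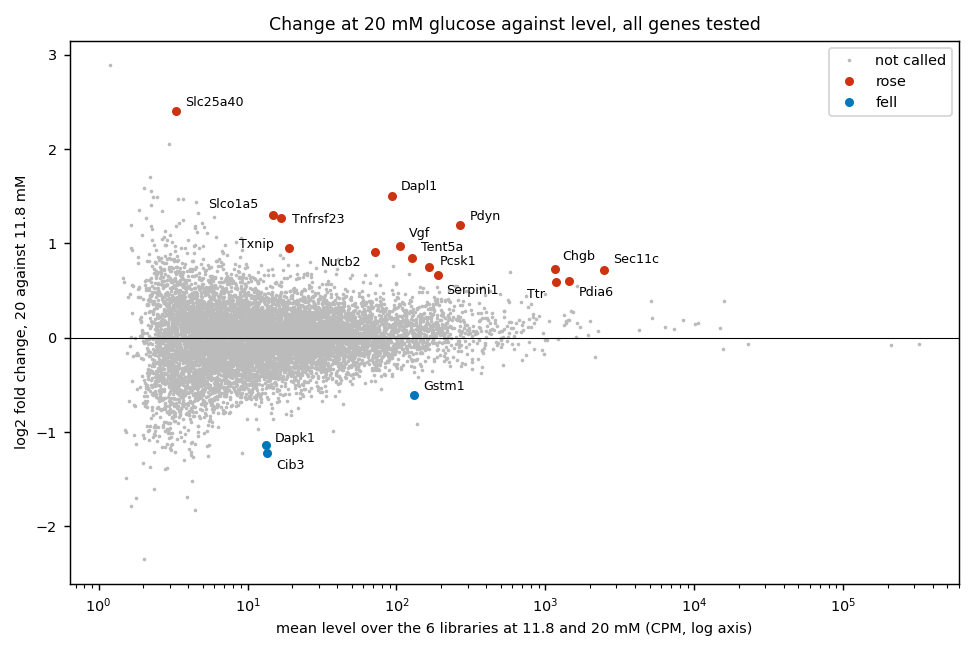
Log2 fold change at 20 against 11.8 mM glucose (vertical axis) against the mean level over the 6 libraries in CPM (horizontal, log axis), 1 point per gene tested. The 15 genes that rose are red, the 3 that fell blue; called genes range from Slc25a40, at a few CPM, to Sec11c, the most abundant of the 18.

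Precursors of peptides and granins gave 4 of the 15 rises. Granins are acidic proteins that help to pack the secretory granule and are cut into peptides. This list, like the other lists below, was drawn up with earlier results of these data known. Its count of rises is therefore no separate support. Of 29 genes listed, 19 passed the count filter, of which 4 rose, none fell and 15 did not pass the test. Their median log2 fold change was 0.23, with 15 of 19 positive and 8 of 19 with all 20 mM libraries above. Over all genes tested 0.154% rose, 49.8% were positive and 6.79% had all 20 mM libraries above. Pdyn encodes prodynorphin, the precursor of the dynorphin opioid peptides. Its level was 171, 182 and 136 CPM in replicates 1 to 3 at 11.8 mM and 377, 391 and 353 CPM at 20 mM. The lowest 20 mM library lay far above the highest control, and the log2 fold change was 1.20 ± 0.14 (SE, n = 3 against 3; edgeR adjusted p = 3.09e-06).

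Vgf encodes a granin-like precursor induced by neurotrophins. Its libraries read 81.8, 81.4 and 50.5 CPM at 11.8 mM and 111, 155 and 153 CPM at 20 mM, with 20 mM replicate 1 the lowest of the treated and still above all controls (log2 fold change 0.97 ± 0.16, edgeR adjusted p = 0.00526). Nucb2, the precursor of nesfatin-1, was close to constant in the controls, at 50.4, 49.1 and 50.2 CPM, and stood at 116, 84.3 and 81.7 CPM at 20 mM (0.91 ± 0.15, edgeR adjusted p = 0.00237). Chgb, chromogranin B, is one of the abundant granule proteins: it read 965, 893 and 747 CPM at 11.8 mM and 1500, 1416 and 1391 CPM at 20 mM (0.73 ± 0.13, edgeR adjusted p = 0.00576). On GRCm38 (GENCODE M21) Pdyn lies at chr2:129686565-129699844, Vgf at chr5:137026392-137033351, Nucb2 at chr7:116504369-116540584 and Chgb at chr2:132781278-132795079. Pdyn, Vgf and Nucb2 were called in all 20 alternative analyses; Chgb was lost without 20 mM replicate 1 and when the acinar marker level was added to the model.

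Other granule precursors did not pass the test. Chga, the sister granin of Chgb, averaged 7037 CPM at 11.8 mM and 7508 CPM at 20 mM (log2 fold change 0.09 ± 0.13, edgeR adjusted p = 0.928), and Scg2 read 0.19 ± 0.13; these members, and others of the lists below that are named for the range, were picked after their values were seen. Iapp, the amyloid peptide released with insulin, read 13813, 13990 and 13168 CPM at 11.8 mM and 19258, 16301 and 18102 CPM at 20 mM. Its libraries did not overlap, but the change of 0.39 ± 0.13 missed the threshold (edgeR adjusted p = 0.340). Cck, the cholecystokinin precursor, was near the floor, at 3.72, 4.15 and 2.32 CPM against 13.5, 6.80 and 5.34 CPM (1.28 ± 0.36, edgeR adjusted p = 0.184). In this list 4 of the 19 tested members had negative values, with Gal the lowest at -0.72. Ucn3, also a member and given below as a beta cell marker, read -0.38 ± 0.13.

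**Figure D2:**
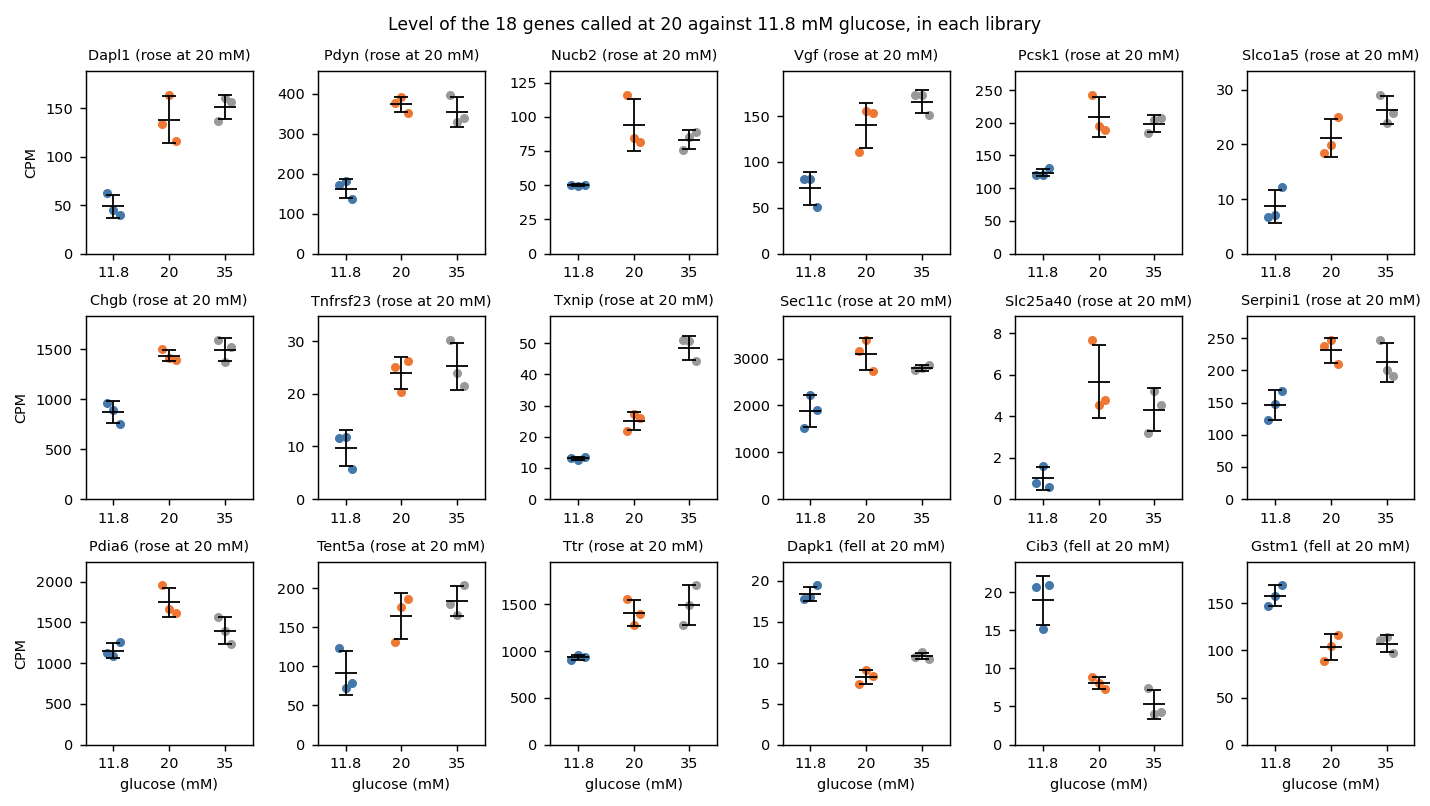
Level in CPM (vertical axes start at 0) of the 18 called genes in each library at 11.8, 20 and 35 mM glucose; points are libraries, bars the mean ± SD of 3. For each gene the 3 points at 20 mM lie wholly above or wholly below the 3 at 11.8 mM; Txnip alone shows a further step to 35 mM that passed the test.

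Among the 12 tested processing genes, 1 rose, none fell and 11 did not pass, with a median of 0.05 and 6 of 12 positive. Over all genes tested 0.154% rose and 49.8% were positive. Pcsk1 encodes prohormone convertase 1/3, one of the enzymes that cut proinsulin. It read 121, 121 and 130 CPM at 11.8 mM and 243, 195 and 189 CPM at 20 mM, and each of the 9 sub-libraries at 20 mM exceeded all 9 at 11.8 mM (0.75 ± 0.13, edgeR adjusted p = 0.00543; lost without 20 mM replicate 1). Pcsk2, the other islet convertase, read 0.17 ± 0.13 and Cpe, which trims the ends left by the convertases, 0.11 ± 0.12. Pam, the enzyme that amidates peptide ends, lay just outside the threshold, at 318, 279 and 299 CPM against 453, 432 and 408 CPM (0.53 ± 0.13, edgeR adjusted p = 0.0842). None of the 22 tested genes of the granule membrane and exocytosis passed the test, their median was 0.02, and 11 were positive; Ptprn, a granule membrane protein, had the highest value, 0.44 ± 0.14 (edgeR adjusted p = 0.325).

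The genes for entry into the ER had mostly small positive values. Of 30 genes for translocation, signal peptide removal and N-glycosylation, 29 were tested, 27 had positive log2 fold changes, and the median was 0.32 against -0.00 for all genes. In 19 of the 29, or 65.5%, all 20 mM libraries lay above all controls, and in none below. Over all genes these shares were 6.79% and 6.04%, without matching for level or SE. The list was drawn up with earlier results of these data known, so its share is no separate support. Only Sec11c passed the test, so 28 of 29 members did not, and 17 had an unadjusted p under 0.05. Sec11c, a catalytic subunit of signal peptidase, read 1517, 2214 and 1909 CPM at 11.8 mM and 3157, 3400 and 2729 CPM at 20 mM (0.72 ± 0.14, edgeR adjusted p = 0.0116; lost without 20 mM replicate 1 or 2 and in the fit of the 6 libraries alone). The other 4 signal peptidase genes read between 0.18 and 0.49, and all 5 were without overlap.

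By complex, the 4 TRAP genes, which assist the channel, had a median of 0.45 and the 8 oligosaccharyltransferase genes 0.30. The 6 genes of the signal recognition particle and its receptor had 0.31. The channel subunits Sec61a1, Sec61b and Sec61g, taken with the accessory genes Sec62, Sec63 and Tram1, had 0.17. Within this last group of 6, Sec61g read 153, 214 and 232 CPM against 309, 278 and 292 CPM (0.55 ± 0.14, edgeR adjusted p = 0.0983). Sec61a1 read 0.07 ± 0.15 and the accessory gene Sec62 -0.04 ± 0.14. Per library, the median over the 29 genes relative to the 11.8 mM mean was -0.00, 0.05 and 0.03 at 11.8 mM and 0.34, 0.34 and 0.29 at 20 mM on the log2(CPM + 0.5) scale. The highest control and the lowest 20 mM library lay further apart than any pair within a group. The genes of a list share their libraries and are not independent of each other.

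Of 27 ER chaperones and disulfide isomerases, all tested, 1 rose, none fell and 26 did not pass, with a median of 0.30, 23 positive, and 13 with all 20 mM libraries above and none below. That left 48.1% of the list without overlap, against 12.8% of all genes tested, of which 0.154% rose and 49.8% were positive. These shares were not matched for level or SE. The list was also drawn up with earlier results known, so they are no separate support. Pdia6, a disulfide isomerase whose promoter carries the ERSE shown above, read 1122, 1084 and 1254 CPM at 11.8 mM and 1953, 1669 and 1612 CPM at 20 mM (0.60 ± 0.13, edgeR adjusted p = 0.0489). This call is marginal: it held in 5 of 20 alternatives and ended on omission of any 1 library at 20 or 35 mM, of control replicate 1 or 2, or of 1 sub-library of 11.8 mM replicate 2 that stood at 457 CPM. Pdia6 also shares exon sequence with Atp6v1c2 on the opposite strand, and reads of the pair cannot be told apart unless counting used the strand, which is not given in the sources used here. Fkbp11, a prolyl isomerase of secretory cells, read 17.3, 18.4 and 11.9 CPM against 28.2, 28.2 and 25.3 CPM (0.77 ± 0.19, edgeR adjusted p = 0.0916). Hsp90b1 (GRP94) read 217, 207 and 225 CPM against 298, 304 and 316 CPM (0.50 ± 0.12, edgeR adjusted p = 0.0916), and its promoter holds the ERSE at 2 places.

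Hspa5, the abundant chaperone BiP, averaged 703 CPM at 11.8 mM and 903 CPM at 20 mM (0.36 ± 0.12, edgeR adjusted p = 0.351). At the other end Canx, calnexin, read 0.02 ± 0.14 and Ero1a, an ER oxidase, -0.25 ± 0.16. The 25 genes of the stress sensors, their factors and ER-associated degradation had a median of 0.07 with none called; Ddit3 (CHOP) was the lowest at -0.31 and Atf6 the highest at 0.45. The 27 genes of COPII and COPI vesicle traffic had a median of 0.20, 22 positive and none called. Tmed3, a cargo receptor of those vesicles, came nearest, at 154, 147 and 159 CPM against 241, 225 and 203 CPM (0.54 ± 0.13, edgeR adjusted p = 0.0632).

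**Figure D3:**
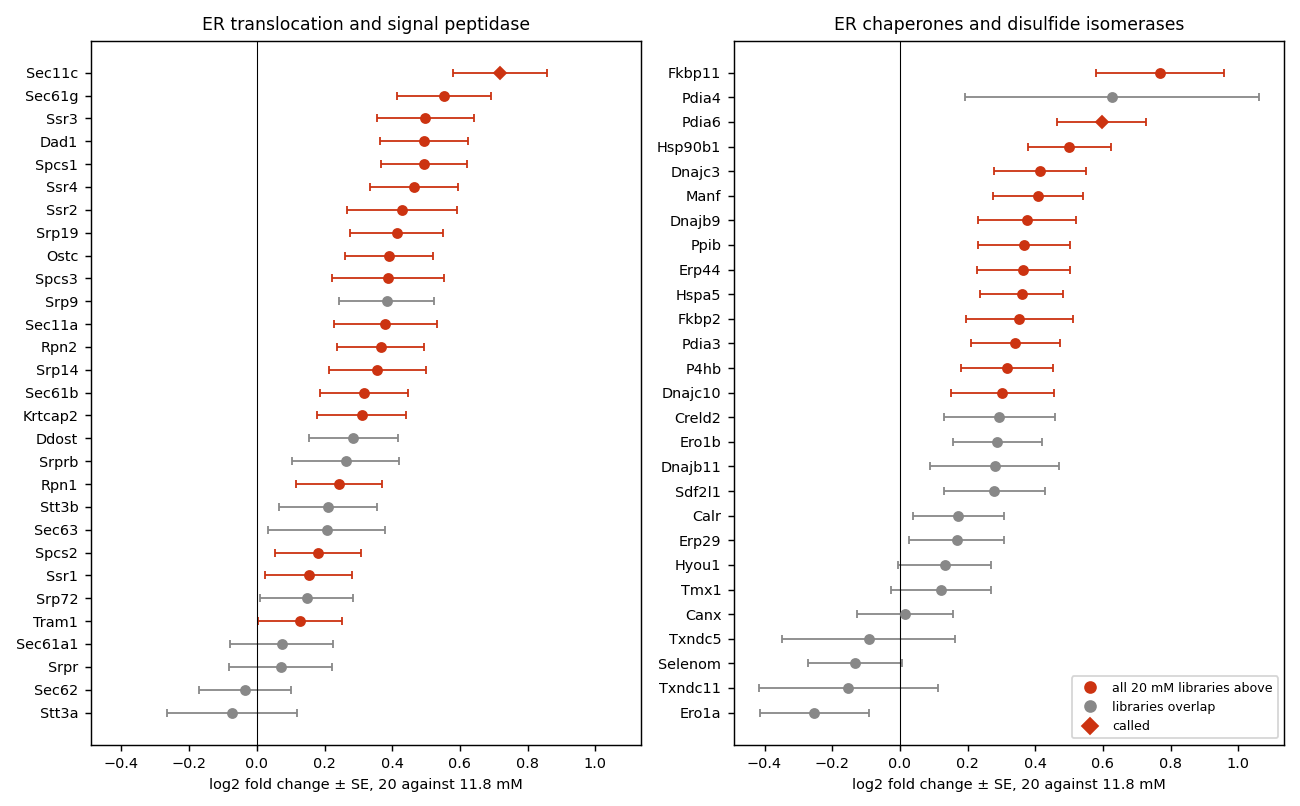
Log2 fold change ± SE at 20 against 11.8 mM for the 29 tested genes of ER translocation and signal peptidase (left) and the 27 ER chaperones and disulfide isomerases (right). Red marks genes whose 3 libraries at 20 mM all exceed the 3 at 11.8 mM, diamonds the called genes; 27 of 29 and 23 of 27 points lie right of 0, and Sec11c and Pdia6 are the called members.

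Acinar markers are given beside these values. The 23 tested acinar genes had a median of 0.38, 22 positive, with none called and none without overlap, and their summed share of counts ran from 0.379% to 1.40% at 11.8 mM and from 0.783% to 1.43% at 20 mM. Their median was -0.012 without 20 mM replicate 1 and 1.33 without 11.8 mM replicate 2. The highest acinar levels by library were in 11.8 mM replicate 2, at 1.30, and 20 mM replicate 1, at 1.21. The ER translocation median was 0.05 in that control library, the highest of the 3 controls, and 0.34 in that 20 mM library. With the acinar level as a term in the model, the translocation median was 0.32, the chaperone median 0.33, and 11 genes were called over all genes tested, 10 of them among the 18; Sec11c, Pdia6, Serpini1, Ttr, Chgb, Slc25a40, Gstm1 and Cib3 lost their call.

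Txnip read 13.3, 12.5 and 13.3 CPM at 11.8 mM, 21.8, 27.4 and 26.1 CPM at 20 mM and 51.1, 50.6 and 44.1 CPM at 35 mM. The 3 groups did not overlap. The log2 fold change from 11.8 to 20 mM was 0.95 ± 0.18 (edgeR adjusted p = 0.0116; lost on omitting replicate 2 or 3 at 20 mM and in the fit of the 6 libraries alone), and that from 20 to 35 mM 0.95 ± 0.16 (edgeR adjusted p = 0.00750). Txnip shares exon sequence with Gm15441 on the opposite strand. It was the only call among 20 ChREBP targets and arrestins, whose median was -0.01 with 8 positive. Over all genes tested 0.185% were called and 49.8% were positive. Arrdc4, a related arrestin and ChREBP target, read 4.25, 3.23 and 4.64 CPM against 6.44, 3.78 and 5.06 CPM, with overlap (0.33 ± 0.33, edgeR adjusted p = 0.883). G6pc2, the islet glucose-6-phosphatase, read 1009, 1349 and 1610 CPM against 2410, 1742 and 1663 CPM (0.55 ± 0.16, edgeR adjusted p = 0.200). Pklr, Fasn and Acaca, enzymes of glycolysis and lipid synthesis, read -0.25, -0.02 and -0.01, with SEs of 0.35, 0.23 and 0.31.

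Among the called genes Dapl1 had the largest fitted rise after Slc25a40; it encodes a small protein named for its likeness to a death-associated protein. It read 62.1, 44.5 and 39.5 CPM at 11.8 mM and 134, 164 and 117 CPM at 20 mM, a 2.84-fold change (1.5 ± 0.16, edgeR adjusted p = 2.12e-06), and was called in all 20 alternatives. Slco1a5, an organic anion transporter, read 6.64, 7.15 and 12.2 CPM against 18.4, 19.9 and 25.0 CPM (1.30 ± 0.23, edgeR adjusted p = 0.00543; lost without 20 mM replicate 3). Tnfrsf23, a decoy receptor for the death ligand TRAIL, read 11.7, 11.8 and 5.80 CPM against 25.2, 20.4 and 26.1 CPM (1.27 ± 0.23, edgeR adjusted p = 0.00576). The adjusted p went above the threshold on omitting replicate 3 of the controls, or replicate 1 or 3 at 20 mM, and the gene shares exon sequence with E230032D23Rik on the opposite strand.

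Slc25a40, a mitochondrial carrier, had the largest fold of the 18 called genes, but on few reads. Its raw counts were 3, 7 and 2 at 11.8 mM and 25, 18 and 17 at 20 mM, with reads in 6 of 9 sub-libraries against 9 of 9. The fitted change of 2.40 ± 0.47 (edgeR adjusted p = 0.0125) therefore carries a wide error, and omitting control replicate 1 or 3, or replicate 1 at 20 mM, ended the call. Serpini1, neuroserpin, a secreted protease inhibitor, read 122, 148 and 169 CPM against 237, 247 and 209 CPM (0.66 ± 0.14, edgeR adjusted p = 0.0366).

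Ttr, transthyretin, a carrier of thyroid hormone and retinol and a marker of alpha cells, read 907, 958 and 936 CPM against 1557, 1283 and 1392 CPM (0.60 ± 0.13, edgeR adjusted p = 0.0489). Gcg, the defining alpha cell hormone, read 16791, 16476 and 15442 CPM against 16653, 15071 and 13182 CPM (-0.12 ± 0.13), and the 16 tested alpha cell markers had a median of 0.06, 9 positive. Tent5a, a cytoplasmic poly(A) polymerase known for stabilising transcripts of secreted proteins, read 124, 72.4 and 78.1 CPM against 131, 176 and 186 CPM. Its groups barely parted, 20 mM replicate 1 lying next to 11.8 mM replicate 1 (0.85 ± 0.18, edgeR adjusted p = 0.0489). These last calls were fragile: Serpini1 held in 11 of 20 alternatives, Tent5a in 8 and Ttr in 5. Serpini1 lost its call on omission of any replicate at 20 mM, of control replicate 1 or 2, or of replicate 2 at 35 mM. Tent5a lost it on omission of replicate 2 or 3 of the controls or of 20 mM, or replicate 1 or 2 at 35 mM, and Ttr on omission of any single library of the 9.

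Dapk1, a calcium and calmodulin dependent kinase of cell death, read 17.8, 18 and 19.4 CPM at 11.8 mM and 7.36, 9.06 and 8.43 CPM at 20 mM, with little spread in either group (-1.14 ± 0.22, edgeR adjusted p = 0.0116). Cib3, a calcium and integrin binding protein, read 20.7, 15.2 and 20.9 CPM against 8.90, 8.05 and 7.30 CPM (-1.22 ± 0.25, edgeR adjusted p = 0.0193). Gstm1, a glutathione transferase, read 147, 158 and 169 CPM against 89.3, 105 and 117 CPM (-0.61 ± 0.13, edgeR adjusted p = 0.0489). Each of the 3 calls ended on omission of control replicate 3 or of replicate 1 or 3 at 20 mM. Dapk1 and Cib3 were also lost without 1 sub-library of 11.8 mM replicate 1; Cib3 further depended on control replicate 1 and replicate 2 at 20 mM, and Gstm1 on replicate 2 of both groups and on each library at 35 mM.

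The sub-libraries give the same signs. In all 18 called genes the log2 ratio of 20 to 11.8 mM had 1 sign in each of the 3 barcode sets, and in 7 of the 15 rises all 9 sub-libraries at 20 mM exceeded all 9 at 11.8 mM: Dapl1, Pdyn, Nucb2, Pcsk1, Chgb, Sec11c and Pdia6. The genes were called on the sums of these same sub-libraries, so like signs in the parts are no separate support. The matching shares over all tested genes were not computed. Sub-libraries of 1 sample share its RNA and are not replicates of the condition. One sub-library of 11.8 mM replicate 1 held 11.8% of its counts on Ins1, where its 2 companions held 26.1% and 26.5%; without it 18 genes were called.

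Just outside the threshold lay 20 genes with adjusted p between 0.0573 and 0.103, libraries without overlap and an average level of 10 CPM or more, 18 of them higher and 2 lower at 20 mM. Beyond Pam, Fkbp11, Hsp90b1, Sec61g and Tmed3 they include Crem, a CRE-binding factor itself induced by cyclic AMP, at 23.6, 19.8 and 21.5 CPM against 41.7, 35.5 and 31.2 CPM (0.74 ± 0.17). Pycr1, which makes proline, read 29.5, 24.0 and 22.1 CPM against 40.8, 38.0 and 44.7 CPM (0.71 ± 0.16), and Odc1, the first enzyme of polyamine synthesis, read 0.66 ± 0.16. Cycs, cytochrome c, read 0.54 ± 0.13 and Ndufa1, a complex I subunit, 0.58 ± 0.13. The others higher at 20 mM were Mycbp, Gc, Spon2, Ubr4, Atp5mpl, Col27a1, Tm4sf4 and Pla2g12a, between 0.54 and 0.87. The 2 lower were Fbxo44 (-0.67 ± 0.17) and Junb, an AP-1 subunit, at 40.4, 52.1 and 69.9 CPM against 31.3, 32.2 and 36.0 CPM (-0.70 ± 0.18). Junb shares exon sequence with Prdx2 on the opposite strand, and Crem, Mycbp and Hsp90b1 likewise overlap opposite-strand genes. Pam, Hsp90b1 and Ubr4 share exon sequence with genes on their own strand. Ptprn, Trpm5 and Ramp2, named in other paragraphs, also share exon sequence with another gene.

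Nuclear genes of oxidative phosphorylation had a median of 0.19, with 29 of 36 positive, 8 with all 20 mM libraries above, 1 below, and none called. That left 25% of the list without overlap, against 12.8% of all genes tested. The 27 proteasome genes had a median of 0.13, 26 positive, none called, against 49.8% positive over all genes tested. Immediate early genes had a median of -0.25, with 3 of 17 positive and none called; Fos read 13.5, 18.4 and 22.9 CPM against 7.67, 9.56 and 15.4 CPM, with overlap (-0.74 ± 0.26, edgeR adjusted p = 0.382).

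None of the main islet hormones passed the test. Ins1 averaged 214030 CPM at 11.8 mM and 202662 CPM at 20 mM (-0.08 ± 0.14) and Ins2 read 238876, 337041 and 412635 CPM against 304820, 322858 and 315967 CPM (-0.07 ± 0.17). Sst read 0.11 ± 0.15 and Ppy 0.21 ± 0.17, all with edgeR adjusted p of at least 0.830. Of 24 tested identity genes 1 rose, Pcsk1, none fell, and 7 were positive, with a median of -0.07. Over all genes tested 0.154% rose and 49.8% were positive. Slc2a2, the glucose transporter of mouse beta cells, read 99.6, 90.4 and 137 CPM against 87.7, 73.2 and 104 CPM (-0.30 ± 0.15, edgeR adjusted p = 0.637), and Ucn3, a marker of mature beta cells, 421, 363 and 467 CPM against 283, 307 and 372 CPM (-0.38 ± 0.13, edgeR adjusted p = 0.382). Trpm5, a channel of beta cells, was the lowest identity gene, at 43.0, 37.8 and 42.7 CPM against 24.5, 31.7 and 23.6 CPM (-0.62 ± 0.17, edgeR adjusted p = 0.161). Mafa, a beta cell transcription factor, had a mean of 0 CPM at 11.8 mM and 0.0936 CPM at 20 mM and was not tested. Kcnj11 and Glp1r of the same list were also near the floor, at 0 and 0.0885 CPM at 11.8 mM. Whether the islets lacked these transcripts or the counting missed them was not tested.

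Markers of 3 other cell types had negative medians. Fibroblast and stellate markers had a median of -0.38, with 2 of 16 positive and a summed share of counts of 0.0422% to 0.0821% at 11.8 mM and 0.0368% to 0.0538% at 20 mM; Col1a2 read 104, 113 and 62.1 CPM against 63.8, 74.5 and 54.2 CPM, with overlap. Macrophage markers had a median of -0.25, with 3 of 15 positive and a summed share of 0.0223% to 0.0260% at 11.8 mM and 0.0202% to 0.0252% at 20 mM; Lyz2 averaged 33.7 and 27.5 CPM. The count filter left 6 of 14 endothelial markers, with a median of -0.50 and 1 positive. Their list had a summed share of 0.00282% to 0.00366% at 11.8 mM and 0.00269% to 0.00330% at 20 mM. Pecam1 averaged 4.15 and 2.03 CPM, while Ramp2, the positive one, averaged 4.21 and 7.13 CPM without overlap. Tek averaged 0 CPM at both concentrations. No marker of these 3 types was called. In bulk tissue fewer cells of a type and less RNA per cell cannot be told apart, and the part of cell composition in the called genes was not tested.

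**Figure D4:**
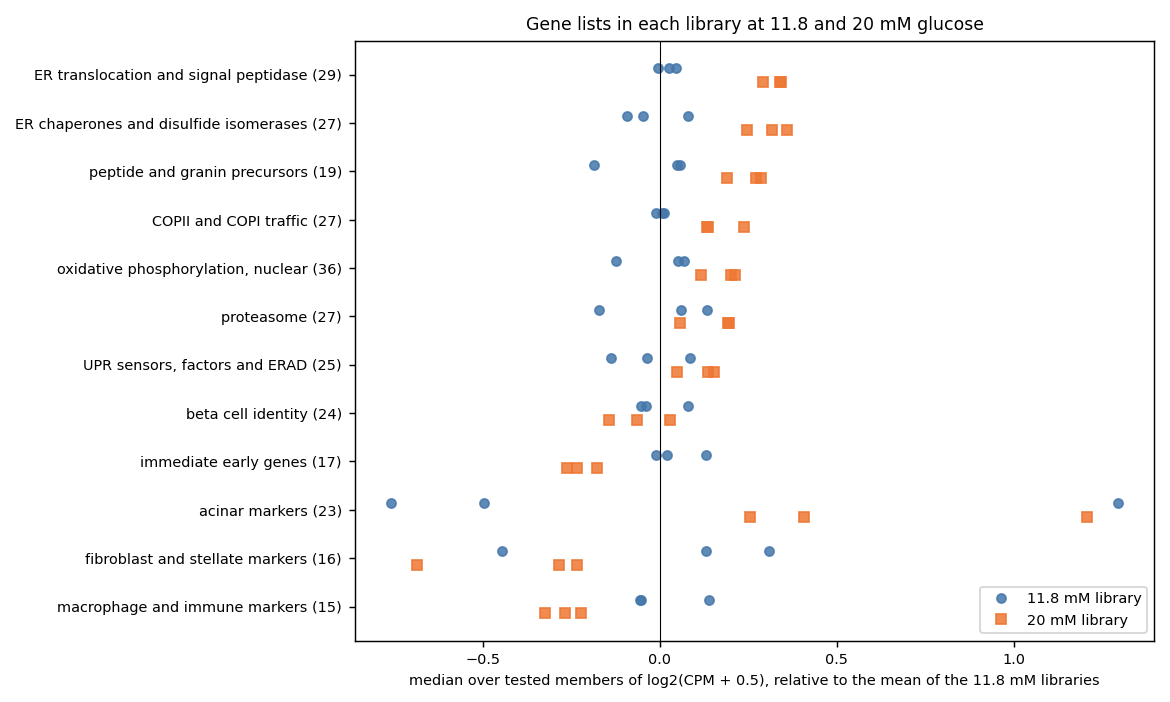
Median over the tested members of 12 gene lists (number of genes in brackets) of log2(CPM + 0.5) relative to the mean of the 11.8 mM libraries, in each library at 11.8 mM (blue circles) and 20 mM (orange squares). The groups part for ER translocation, chaperones, peptide precursors, vesicle traffic and oxidative phosphorylation (20 mM higher) and for immediate early and macrophage genes (20 mM lower), and overlap for acinar and fibroblast markers.

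At 35 mM, measured against the same 11.8 mM libraries, the values of the called genes stood close to those at 20 mM. Because the controls are shared, the likeness of the 2 sets of values is not independent evidence. Of the 18, 15 also passed the test at 35 mM; Serpini1 (0.54, edgeR adjusted p = 0.0600), Dapk1 (-0.76, 0.0866) and Pdia6 (0.28, 0.465) did not. Dapl1 read 1.5 at 20 mM and 1.63 at 35 mM, Pdyn 1.20 and 1.12, Pcsk1 0.75 and 0.68, and Chgb 0.73 and 0.78. In the direct contrast of 35 with 20 mM, Txnip alone of the 18 passed, 12 differed by less than 0.25 on the log2 scale, and 8 of the 15 rises had the higher mean at 35 mM. A step that missed the threshold does not show that the levels at 20 and 35 mM are equal. For the lists, medians at 20 and 35 mM were 0.32 and 0.31 for ER translocation, 0.30 and 0.17 for chaperones, and 0.23 and 0.29 for peptide precursors.

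**Figure D5:**
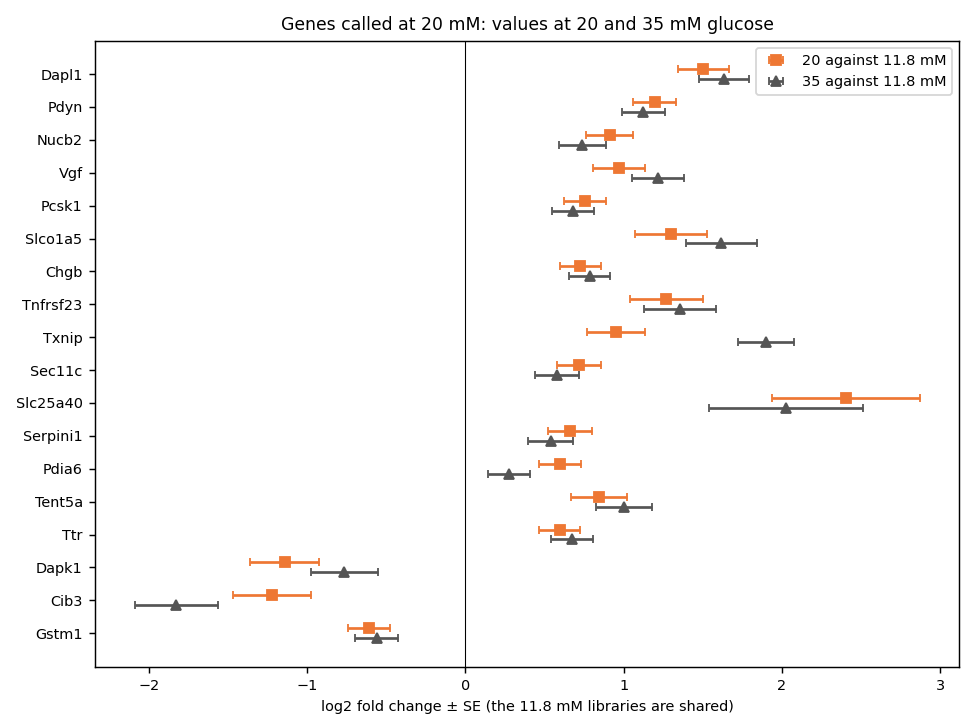
Log2 fold change ± SE of the 18 called genes at 20 mM (orange squares) and 35 mM (grey triangles), each against the same 3 libraries at 11.8 mM. The values lie near each other for most genes, Txnip is higher at 35 mM (1.90 against 0.95), and Pdia6 is lower (0.28 against 0.60).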

How the data were processed

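RNA of 9 cultured mouse islet samples was measured, 3 per glucose concentration. The authors deposited read counts per gene and sub-library. The submitters' processing notes name the build GRCm38.p4 and the tools cutadapt, TopHat, HTSeq and DESeq2; their versions, the annotation used and the strand setting were not given in the sources used here. Counts were not collapsed by the 6-base molecular identifier, since 16 genes exceeded its 4096 possible values, so intervals of counting error do not cover amplification. The 30 value columns of the other 2 tables could not be tied to samples and were not used here. Unassigned and ambiguous reads (21.8% to 29.9% of counts in the 6 libraries) stayed out of library sizes, as did the spike-ins.

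The 3 sub-libraries of a sample were summed. All 9 libraries were fitted together with edgeR 4.0.16 (R 4.3.3; filterByExpr, TMM, robust quasi-likelihood, 6 residual degrees of freedom), with the contrast 20 minus 11.8 mM and Benjamini-Hochberg adjustment over all 9739 genes; the test was checked on simulated counts. A permutation test of 3 against 3 could not go below p = 0.1. Alternatives covered DESeq2 1.42.0, filters, scaling, a replicate block and omitted libraries. Added after seeing the data were the omission of 35 mM libraries and of 2 sub-libraries, the acinar term and DESeq2 on the filtered genes.

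Named genes were all called genes, the 20 nearest uncalled genes of at least 10 CPM without overlap, the called or 2 lowest-p members of each of 40 lists (834 genes, 5 without a match), and the main islet hormones. The members and lists were chosen with earlier results of these data known. Promoters and gene positions came from RefSeq GRCm38.p6 and GENCODE M21.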

Additional observations from a re-analysis of the deposited data

How the results depend on the processing

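With 18 genes called, 51 were called without the count filter, 57 by the DESeq2 Wald test (12 shared), 34 by DESeq2 on the filtered genes, 11 in the fit of the 6 libraries alone and 11 with the acinar level in the model; leaving out 1 library gave 7 to 35. The cause of these differences was not tested. The 6-library fit has fewer libraries to estimate the spread, and its filter and scaling were also computed anew. Deviations of same-numbered samples correlated at -0.16, -0.02 and 0.04, and those of differently numbered samples ran from -0.17 to 0.17. These values show no pairing by replicate number but cannot exclude it. A replicate block gave 13 calls. Dapl1, Pdyn, Nucb2 and Vgf were called in all 20 alternatives, and no called gene changed sign. Uncalled genes near 0 changed sign when 1 library or sub-library was left out: Fabp5 ran from -0.042 to 0.41, Sst from -0.060 to 0.25, Ins1 from -0.19 to 0.018 and Ins2 from -0.26 to 0.12. Depth limits genes at a few CPM such as Slc25a40, and the median SE of 0.25 on the log2 scale limits what 3 libraries a group could show.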
